A study of Mus musculus with 25 samples.

Results

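Livers of mice given concanavalin A (ConA) and then BW245C, collected at 3 hr, were compared with livers of untreated mice across 15104 genes. The comparison used the 5 arrays whose sample titles name ConA with BW245C at 3 hr and the 5 titled as non-treated liver, which is 10 of the 25 arrays of the study. The mice of the ConA + BW245C group were C57BL/6NcrSlc females injected with ConA at 10 mg/kg and, 15 min later, with BW245C at 1 mg/kg intraperitoneally. A second set of 5 livers, given ConA and then vehicle and also collected at 3 hr, is used below to test whether a change seen with the agonist differed from the change with vehicle. The untreated group was 5 C57BL/6NcrSlc females labelled as unstimulated, so the comparison holds the lectin, the agonist and the injections together. No group given BW245C without ConA was analysed here, and the sources used here do not give the age of the mice. RNA came from liver homogenate, 1 mouse per array, and in such bulk samples fewer cells of a type and less RNA per cell cannot be told apart.

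ConA is a plant lectin that binds glycoproteins on T cells and activates them, and in mice its injection causes a hepatitis driven by T cells, natural killer T cells and Kupffer cells, the resident macrophages of the liver. Interferon gamma and tumour necrosis factor made by these cells act on hepatocytes and on the endothelium of the sinusoids, where neutrophils and platelets then collect. BW245C is a synthetic compound that activates DP1, which is one of the receptors of prostaglandin D2 and couples to the stimulatory G protein and raises cyclic AMP. Hepatocytes answer inflammatory cytokines with the acute phase response, in which secreted defence proteins are made in large amounts while parts of metabolic gene expression are turned down. The question the comparison addresses is which of the early changes of ConA hepatitis were present when the agonist had been given.

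All 25 arrays had between 52.2 and 61.6% of their spots well above background and no saturated spots, and no pair of arrays held identical values. Signals are given as scaled signal, in which 100 is the 75th percentile of the same array, and changes as log2 of the ConA + BW245C signal over the untreated signal, with the standard error of the limma fit. A gene was called when its p-value, adjusted over all genes tested by the Benjamini-Hochberg method, was under 0.05, and "rose" and "fell" are used only of called genes. Of the defining genes of hepatocytes, such as haptoglobin and the fibrinogen beta chain, 14 were measured, and their summed scaled signal lay between 1269500 and 1488500 in ConA + BW245C livers and between 1128800 and 1318700 in untreated livers, so that the labelled tissue expressed its markers. The 5 ConA + BW245C arrays were all on 1 slide and the untreated arrays on 2 others, so slide and group cannot be told apart within these 10 arrays. Arrays of ConA + vehicle livers lay on all 3 slides and bridge them, which allowed a fit with slide as a block. Replicate 5 of the ConA + BW245C group was the lowest or highest array of its group for several of the genes described here, and its values are given beside those genes.

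In ConA + BW245C livers 4075 genes rose (27% of the genes tested) and 6393 fell (42.3%), 69.3% in either direction. The changes past 2-fold were 1737 increases (11.5%) and 1793 decreases (11.9%). Large changes were mostly increases, with 200 genes up and 79 down by at least 8-fold, and 65 up and 5 down by at least 32-fold. The median log2 change over all genes was -0.18, so that a small decrease was the background against which each gene is read. With slide as a block 2209 genes rose and 2970 fell, 34.3% of those tested, and the median over all genes was -0.04. Of the genes called without the block, 4743 were called in the same direction with it and 5 in the opposite direction, while slide itself passed the test in 3331 genes (22.1%). Of the 167 genes named in the text, 33 were called without the block and not with it: Adamts15, Apoa4, C1qa, Ccl27a, Chrna4, Col1a2, Col3a1, Cxcl16, Dusp4, F7, F9, Gdf15, Hba-a1, Hbb-bt, Icam2, Il10, Il33, Kdr, Mmp14, Mmp2, Pde4a, Per1, Pim2, Ptges, Ptgs1, Ptgs2, S100g, Slc25a34, Slc40a1, Spp1, Timp2, Vsig4 and Vwf. The signals of the 10 arrays did not overlap between the groups in 60.1% of genes, 22.9% with ConA + BW245C above and 37.3% with it below.

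**Figure D1:**
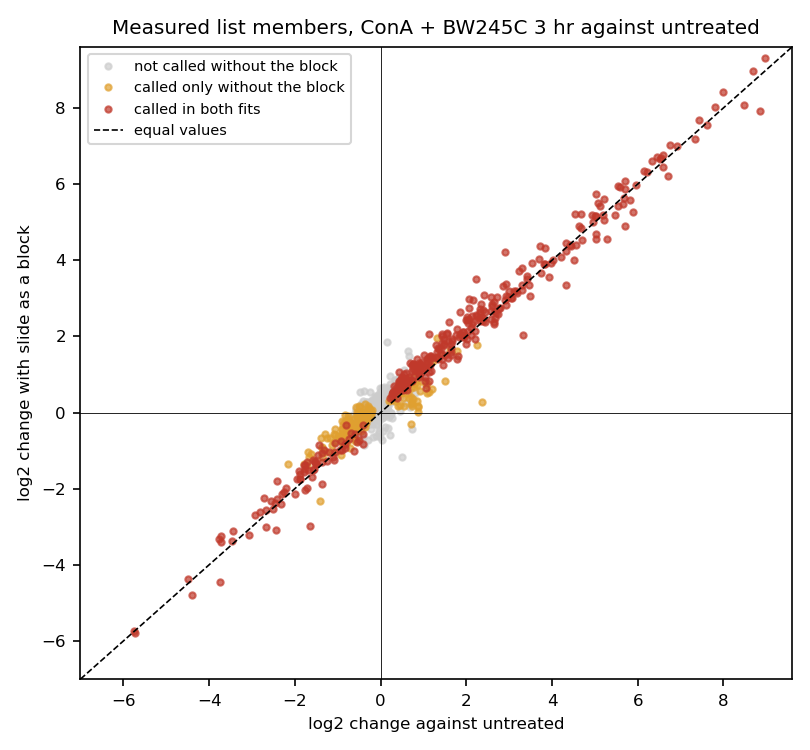
The log2 change of ConA + BW245C over untreated livers for the 824 measured members of the gene lists, without (horizontal axis) and with (vertical axis) slide as a block, 1 point per gene, with the dashed line at equal values. The 331 genes called in both fits (red) lie along the line out to the largest changes, and the 195 called only without the block (orange) lie mostly near 0.

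The largest increases described here were of genes for chemokines, which attract leukocytes, and of genes induced by cytokines. They were chosen among called genes whose groups did not overlap, so their separation follows from that choice. Cxcl10, a chemokine for activated T cells that is induced by interferon gamma, had scaled signals of 90730, 92024, 106900, 100930 and 80626 in ConA + BW245C livers, against 336, 182, 265, 209 and 182 in untreated livers. Every ConA + BW245C liver was far above every untreated one, and the log2 change was 8.68 ± 0.28, a 412-fold increase (limma adjusted p = 4.58e-17). Cxcl1, a chemokine for neutrophils, had 6166, 7942, 10337, 9726 and 7718 in ConA + BW245C livers and 24.9, 22.7, 32.3, 16.2 and 21.6 in untreated livers, a log2 change of 8.49 ± 0.24 (limma adjusted p = 1.43e-17). Saa3, an acute phase serum amyloid A protein, had 41483, 41834, 41245, 45988 and 19975 in ConA + BW245C livers and 320.0, 205, 254, 172 and 155 in untreated livers, a log2 change of 7.42 ± 0.21. For Saa3 replicate 5 was the low array of its group and still lay well above every untreated array. Socs1, an inhibitor of interferon and cytokine receptor signalling, had 4152, 4272, 3446, 4428 and 2269.7 in ConA + BW245C livers and 22.3, 25.4, 23.8, 21.1 and 19.2 in untreated livers, a log2 change of 7.34 ± 0.22.

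Tnfaip3, which encodes the A20 enzyme that ends NF-kappaB signalling, had scaled signals of 6977, 6806, 6667, 6097 and 4572 in ConA + BW245C livers and 64.4, 53.3, 62.6, 56.6 and 56.6 in untreated livers, a log2 change of 6.72 ± 0.19. The spread within each group was small beside the difference. Cxcl2, another neutrophil chemokine, had 721, 661, 464, 566 and 215 in ConA + BW245C livers and 0.974, 1.36, 0.872, 0.912 and 1.24 in untreated livers, where it was well above background on no array. Where a gene was well above background on no array of a group, its change is given as the least fold these scaled signals allow. This is the mean of the bright group against, on each array of the dim group, the higher of the probe's own signal and the lowest signal among probes well above background. On that measure Cxcl2 rose at least 125-fold. Such a least fold depends on the treatment of background. With a normexp background correction Cxcl2 changed by 4.65 on the log2 scale, which is below that bound. Ccl7, a chemokine for monocytes, rose by 7.80 on the log2 scale, Acod1, which makes itaconate in activated macrophages, by 7.22, Hcar2, a receptor for hydroxybutyrate and nicotinic acid, by 7.07, Retnlg, a resistin-like protein made by neutrophils, by 6.91, and Cxcl9, a further interferon-induced T cell chemokine, by 6.75. The untreated signals of all of these but Cxcl9 were near background: Ccl7 was well above it on 2 untreated arrays, Acod1 on 3, Hcar2 on 4 and Retnlg on 1, so that their fold changes depend on the treatment of background. With a normexp background correction the changes were 5.26 for Ccl7, 4.81 for Acod1, 4.78 for Hcar2 and 4.42 for Retnlg, against 8.62 for the bright Cxcl10 and 6.53 for Cxcl9. Of 167 genes named here, 65 had a change that moved by over 1.5 times with this correction, all of them nearer to 0, and 0 turned in sign. With slide as a block all of the genes given above with their values as rising were called in the same direction, with Cxcl10 at 8.96 and Socs1 at 7.18.

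**Figure D2:**
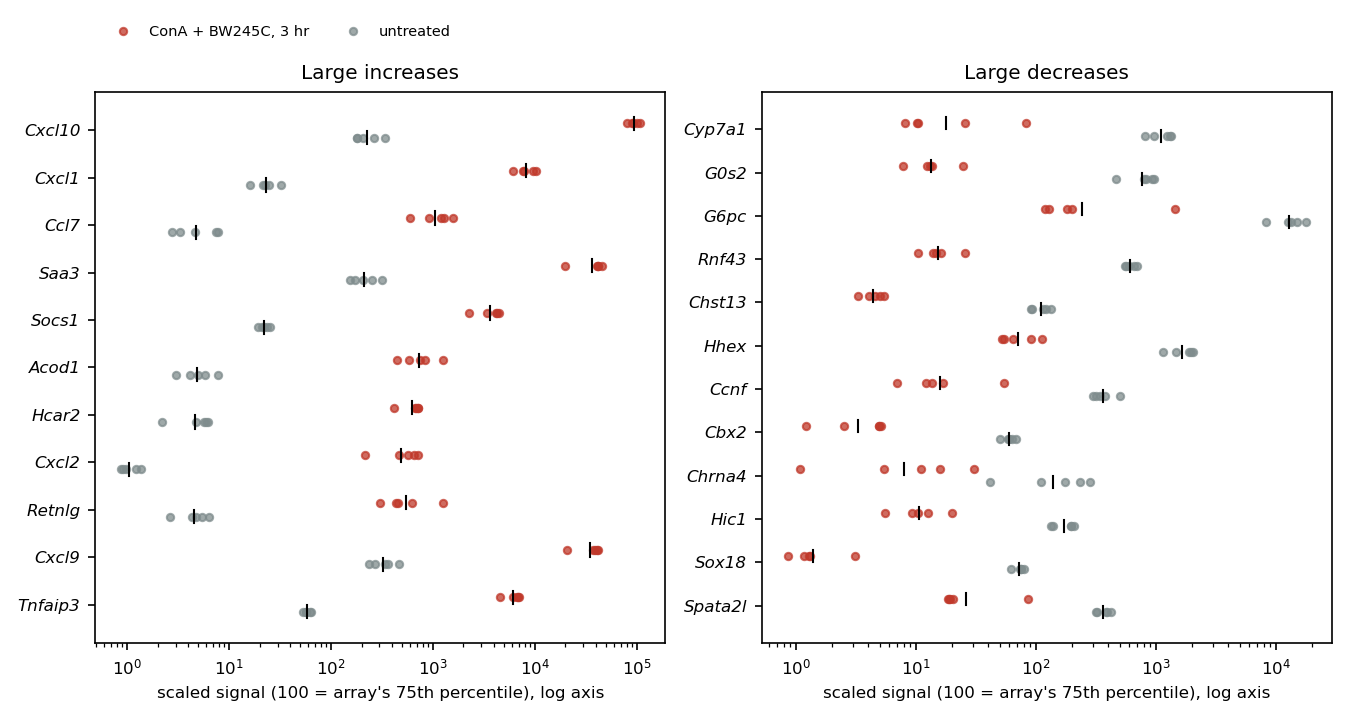
Scaled signal (horizontal log axis, 100 at the array's 75th percentile) of genes with large increases (left) and large decreases (right), 1 point per array, ConA + BW245C livers in red above untreated livers in grey, with a black bar at each group's geometric mean. The genes were chosen among those whose groups do not overlap, so the separation follows from the choice. For G6pc the ConA + BW245C array at 1444 is replicate 5.

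The promoters of these genes are shown because the transcription factors that answer T cell cytokines bind short DNA motifs there. RefSeq promoter windows of build GRCm38.p6 were searched on both strands for 4 sets of letters. They were GGAATTTCC, a perfect NF-kappaB site, GAAANNGAA, the core of interferon-stimulated elements, TGACGTCA, the site of the cyclic AMP response, and TGAGTCA, the AP-1 site. In the sequences below, 5′ to 3′ on the gene's own strand, capitals mark every such match. Tnfaip3 had a second window in the table, with no match.
Cxcl10, chr5:92348840-92349139, minus strand: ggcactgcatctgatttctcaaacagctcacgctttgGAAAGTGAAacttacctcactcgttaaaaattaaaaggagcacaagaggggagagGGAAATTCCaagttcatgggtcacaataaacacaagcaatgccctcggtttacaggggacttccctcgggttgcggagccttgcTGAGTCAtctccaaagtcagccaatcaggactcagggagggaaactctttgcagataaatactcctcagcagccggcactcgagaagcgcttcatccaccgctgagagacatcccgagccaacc
Cxcl1, chr5:90890995-90891294, plus strand: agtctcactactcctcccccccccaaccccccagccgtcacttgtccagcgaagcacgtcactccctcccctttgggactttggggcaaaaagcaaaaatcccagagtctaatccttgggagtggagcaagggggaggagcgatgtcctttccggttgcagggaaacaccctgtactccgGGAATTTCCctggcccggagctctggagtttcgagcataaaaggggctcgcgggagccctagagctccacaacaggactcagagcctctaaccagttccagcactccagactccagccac
Cxcl2, chr5:90903649-90903948, plus strand: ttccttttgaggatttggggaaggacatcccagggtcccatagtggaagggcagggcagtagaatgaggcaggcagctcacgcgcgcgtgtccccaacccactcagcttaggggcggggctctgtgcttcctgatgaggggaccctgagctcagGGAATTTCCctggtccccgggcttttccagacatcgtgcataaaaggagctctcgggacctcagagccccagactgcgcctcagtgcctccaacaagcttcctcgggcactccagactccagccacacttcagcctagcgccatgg
Tnfaip3, chr10:19015361-19015660, minus strand: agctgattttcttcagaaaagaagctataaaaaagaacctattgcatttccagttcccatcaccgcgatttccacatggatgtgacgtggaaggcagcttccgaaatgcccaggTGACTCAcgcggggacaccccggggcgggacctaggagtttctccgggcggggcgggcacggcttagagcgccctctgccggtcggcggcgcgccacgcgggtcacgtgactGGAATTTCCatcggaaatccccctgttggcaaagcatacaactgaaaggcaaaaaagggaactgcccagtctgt
Socs1, chr16:10785487-10785786, minus strand: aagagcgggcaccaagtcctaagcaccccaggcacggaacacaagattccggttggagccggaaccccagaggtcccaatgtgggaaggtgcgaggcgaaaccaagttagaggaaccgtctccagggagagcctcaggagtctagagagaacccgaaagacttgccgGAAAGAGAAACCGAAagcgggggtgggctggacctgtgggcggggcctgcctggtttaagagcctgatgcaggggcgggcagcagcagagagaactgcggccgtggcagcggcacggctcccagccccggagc

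Of the 12 genes with the largest increases, 9 had a promoter in the table, and 5 of these held the NF-kappaB letters (Cxcl10, Cxcl1, Acod1, Cxcl2 and Tnfaip3), against 0.381% of all 27025 genes with a promoter. The interferon letters were in 4 (Cxcl10, Saa3, Socs1 and Cxcl9), against 9.76% of all genes, and in Socs1 a pair of matches ran into each other. The AP-1 letters were in 3 (Cxcl10, Cxcl9 and Tnfaip3), against 5.95%, and the cyclic AMP letters in 0, against 2.03%. Of the 12 genes with the largest decreases, 8 had a promoter in the table. G0s2 held the interferon letters, and none of the 8 held the NF-kappaB, AP-1 or cyclic AMP letters. These matches describe letters in a window and do not show binding in liver.

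Chemokines rose as a family. Of 6 measured chemokines and growth factors that attract neutrophils, 5 rose and 0 fell (5 higher and 0 lower with slide as a block), with a median log2 change of 4.57. Where members of a list were below background in 1 group, the median with those members at their least change is given too, and here it was 3.22. Cxcl5 rose at least 5.77-fold (1.02 on the log2 scale with the normexp correction), with 16 to 27.8 in ConA + BW245C livers. Ppbp, which platelets also store, rose by 3.17 on the log2 scale. Of 16 CC chemokines, 13 rose and 1 fell (14 higher and 0 lower with slide as a block), with a median of 3.39 (2.93 at the least changes). Ccl11, which attracts eosinophils, had 187, 218, 168, 265 and 67.6 in ConA + BW245C livers and 0.83, 0.825, 0.757, 0.778 and 1.06 in untreated livers, an increase of at least 42.6-fold. With the normexp correction Ccl11 changed by 3.31 on the log2 scale, which is below that bound. The monocyte chemokine Ccl2 had 6980, 7356, 5156, 5692 and 2913 in ConA + BW245C livers and 77.2, 43, 71.4, 41.7 and 65.4 in untreated livers, a log2 change of 6.53 ± 0.36. Ccl4, made by activated T cells and macrophages, rose by 6.22, and Ccl27a, the 1 member that fell, changed by -0.46, or -0.13 with slide as a block (adjusted p = 0.589). Besides Cxcl9 and Cxcl10, the group of interferon-induced T cell chemokines held Cxcl16, which fell, with a log2 change of -0.53 (-0.35 with slide as a block, adjusted p = 0.394).

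Most of the cytokines of T cells and macrophages measured rose. Of 27 measured, 20 rose and 1 fell, with a median log2 change of 1.58 (1.08 at the least changes). With slide as a block 14 rose and 0 fell. Ifng, the interferon of T and natural killer cells, had scaled signals of 399, 409.5, 229.7, 289 and 203 in ConA + BW245C livers and 3.66, 4.06, 4.96, 2.71 and 3.22 in untreated livers, where 3 arrays were well above background. The groups did not overlap, and the log2 change was 6.33 ± 0.25 (limma adjusted p = 1.52e-15), or 3.71 with the normexp correction. Tnf had 135, 153, 72.2, 98.1 and 90.4 in ConA + BW245C livers and 2.76, 2.56, 2.93, 1.06 and 1.53 in untreated livers, none of them well above background, an increase of at least 27.2-fold. With the normexp correction Tnf changed by 2.52 on the log2 scale, which is below that bound. Il6, which drives the acute phase response in hepatocytes, had 88.3, 140.0, 58.2, 84.4 and 56.6 in ConA + BW245C livers and 5.03, 2.15, 3.19, 1.8 and 1.47 in untreated livers, a log2 change of 5.03 ± 0.34 with 1 untreated array well above background, or 2.12 with the normexp correction. Il4, a cytokine that natural killer T cells release early, had 100.5, 105, 71.5, 71.8 and 80.7 in ConA + BW245C livers and 4.58, 4.51, 4.37, 4.52 and 4.77 in untreated livers, a log2 change of 4.22 ± 0.15, or 2.14 with the normexp correction. The 5 untreated arrays lay within a narrow range at the background level for Il4, and the 5 ConA + BW245C arrays were all higher. Csf2, a growth factor for granulocytes and macrophages, rose at least 2.99-fold (0.73 on the log2 scale with the normexp correction).

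Il10, a cytokine that restrains macrophages and T cells, was close to the limit of the arrays. It had 5.09, 6.11, 3.57, 9.63 and 6.97 in ConA + BW245C livers, 4 of them well above background, and 2.58, 2.4, 1.85, 1.89 and 1.9 in untreated livers, none of them above it. The increase was at least 1.53-fold (0.33 on the log2 scale with the normexp correction), and with slide as a block the adjusted p was 0.149. Il33, an alarm cytokine of endothelial and epithelial cells, was the 1 cytokine of the list that fell, with a log2 change of -0.77 ± 0.24, or -0.77 with slide as a block (adjusted p = 0.196).

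Of the receptors of prostaglandin D2, neither Ptgdr, which encodes DP1, the target of BW245C, nor Ptgdr2 stood well above background on a single one of the 25 arrays, so the level of the agonist's receptor was not measured in these livers. Hpgds, the haematopoietic synthase of prostaglandin D2, exceeded background clearly on 0 ConA + BW245C arrays and 2 untreated arrays and was not tested. Ptgds, the other synthase, had 451, 794, 208, 179 and 124 in ConA + BW245C livers and 354, 296, 219, 257 and 192 in untreated livers, a log2 change of 0.11 ± 0.44 that was not called (adjusted p = 0.834). Of 17 genes of prostaglandin synthesis and receptors measured, 2 rose and 5 fell (1 higher and 1 lower with slide as a block), with a median of -0.16. Both shares were under those of all genes, 27% and 42.3%. Ptger4, a receptor of prostaglandin E2 that also raises cyclic AMP, rose at least 2.43-fold (0.55 on the log2 scale with the normexp correction). Ptgs2, the inducible cyclooxygenase, rose at least 1.14-fold, with scaled signals of 5.51, 9.44, 3.3, 7.01 and 1.39 in ConA + BW245C livers and 0.911, 0.907, 0.815, 0.847 and 1.24 in untreated livers. Of these, 3 ConA + BW245C arrays and 0 of the untreated ones were well above background for Ptgs2, and the change was not called with slide as a block (adjusted p = 0.16). Tbxa2r, the thromboxane receptor, fell by 3.08 on the log2 scale (-1.19 with the normexp correction), and Ptgs1, the constitutive cyclooxygenase, by 1.26 (-0.67 with slide as a block, adjusted p = 0.0602). Ptges, the inducible synthase of prostaglandin E2, had a change of -0.47 by its brightest probe, which turned to 0.56 when its probes were averaged, so that no direction can be given.

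Genes of cytokine signalling and its feedback rose together. Of 23 genes of the JAK-STAT list, 20 rose and 1 fell (20 higher and 0 lower with slide as a block), with a median log2 change of 1.45. Socs3, the feedback inhibitor of interleukin 6 signalling, had 6189, 7266, 5308, 9375 and 4175 in ConA + BW245C livers and 211, 147, 121, 113 and 100.2 in untreated livers, a log2 change of 5.54 ± 0.24. Bcl3, an atypical IkappaB protein, rose by 3.17, and the kinase gene Pim3 by 2.31. Pim2 was the 1 member that fell, by 0.36, and was not called with slide as a block (adjusted p = 0.657).

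Of the 23 NF-kappaB pathway and target genes measured, 23 rose, 21 of them at least 2-fold, with a median log2 change of 2.92 (2.44 at the least changes). With slide as a block 22 were called. Icam1, an adhesion molecule for leukocytes, had 1895, 1579.8, 1498, 1484 and 1109 in ConA + BW245C livers and 31.8, 20.4, 28.4, 25.7 and 26.6 in untreated livers, a log2 change of 5.83 ± 0.21. Ripk2, a kinase of the intracellular peptidoglycan receptors, rose by 5.47. In all 23 the lowest ConA + BW245C array was above the highest untreated one.

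Interferon response genes rose in 29 of 33 cases, with none called lower (28 higher and 0 lower with slide as a block) and a median of 2.12. Gbp2, a guanylate-binding protein that attacks intracellular pathogens, had 17225, 18851, 15886, 21190 and 9396 in ConA + BW245C livers and 187, 156, 214, 129 and 154 in untreated livers, a log2 change of 6.59 ± 0.21. Tgtp1, a T cell specific GTPase induced by interferon gamma, rose by 5.65, Irf1, the transcription factor that carries the interferon gamma response, by 4.69 by the brighter of its 2 probes, and Irgm1, a regulator of immunity-related GTPases, by 2.99. Genes that load peptides on MHC class I rose in 12 of 16 cases (14 higher and 0 lower with slide as a block), with a smaller median of 0.53. Tap1, a subunit of the peptide transporter, rose by 2.57, Nlrc5, the activator of class I genes, by 1.91, and the immunoproteasome subunits Psmb9 and Psmb10 by 1.21 and 1.14. Class II presentation showed no such change: 1 of 11 genes rose and 1 fell, with none called when slide was a block.

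Immediate early genes, which cells switch on within minutes of a signal, rose in 21 of 26 cases and fell in 3 (17 higher and 2 lower with slide as a block), with a median log2 change of 1.98. Ier3, a survival gene, had 926, 874, 938, 2433 and 439.9 in ConA + BW245C livers and 11.5, 10.6, 10.1, 8.85 and 8.75 in untreated livers, a log2 change of 6.60 ± 0.41. Egr2 rose by 6.46, Junb by 4.51 and Fosl2 by 2.61, all of them transcription factors. The 3 that fell were phosphatases of MAP kinases. Dusp1 had 40.9, 82.1, 51, 154 and 45.3 in ConA + BW245C livers and 253, 413, 404, 508 and 254 in untreated livers, with no overlap and a log2 change of -2.43 ± 0.30 (limma adjusted p = 2.87e-07). Dusp6 fell by 2.29 on the log2 scale and Dusp4 at least 1.12-fold (-0.044 on the log2 scale with the normexp correction). Dusp4 was not called with slide as a block (adjusted p = 0.616).

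Genes induced by or acting in cyclic AMP signalling, the pathway of DP1, were divided. Of 16 measured, 7 rose and 5 fell (7 higher and 4 lower with slide as a block), with a median of 0.21. Over all genes 27% rose and 42.3% fell. Pde4b, a phosphodiesterase that breaks down cyclic AMP, rose by 3.30, the nuclear receptor gene Nr4a2 by 1.94 and Crtc2, a coactivator of CREB, by 0.93. Rgs2, a regulator of G protein signalling, fell by 2.67 and Sik1, a kinase that inhibits Crtc2, by 0.41, the second a call that was lost when any 1 of 6 arrays was left out. Pde4a and the clock gene Per1 fell by 0.97 and 0.82 and were not called with slide as a block (adjusted p = 0.2 for Pde4a and 0.734 for Per1).

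The acute phase response of hepatocytes was present. Of 29 acute phase genes, 25 rose and 0 fell, with a median log2 change of 0.90, and 27 rose with slide as a block. Lcn2, which binds bacterial siderophores, had 26931, 36653, 36610, 46101 and 29226 in ConA + BW245C livers and 454, 798, 633, 768 and 692 in untreated livers, a log2 change of 5.71 ± 0.17. Saa1, the main circulating serum amyloid A, had 101530, 102030, 113650, 112960 and 94770 in ConA + BW245C livers and 3992, 4031, 4194, 1959 and 2566 in untreated livers, a log2 change of 5.03 ± 0.16. Steap4, a metalloreductase induced by interleukin 6, rose by 4.68. The secreted proteins of hepatocytes outside this response, among them the apolipoproteins and clotting factors, mostly stayed uncalled: of 25, 0 rose and 4 fell (1 higher and 1 lower with slide as a block). Apoa5, an apolipoprotein that lowers plasma triglycerides, fell by 1.5. Of 3 others that fell, Apoa4 changed by -0.78, the clotting factor gene F7 by -0.43 and F9 by -0.21, and none was called with slide as a block (adjusted p = 0.24, 0.684 and 0.838).

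Genes of endothelial activation rose in 13 of 22 cases and fell in 2 (11 higher and 0 lower with slide as a block), with a median of 1.49. Vcam1, the adhesion molecule for lymphocytes and monocytes, had 5189.9, 4905, 3211, 4687 and 2379.7 in ConA + BW245C livers and 314, 215, 301, 268 and 273 in untreated livers, a log2 change of 3.85 ± 0.20, and Thbs1, a matrix protein also stored by platelets, rose by 4.43. Icam2 fell by 0.71 and Vwf by 0.46, and neither was called with slide as a block (adjusted p = 0.739 and 0.862). Among 22 matrix and remodelling genes 9 rose and 7 fell (9 higher and 1 lower with slide as a block), where 27% of all genes rose and 42.3% fell. The protease genes Adamts4 (at least 31.9-fold) and Adamts9 (by 2.40 on the log2 scale) and the protease inhibitor gene Timp1 (by 3.41) rose. Adamts5 fell by 1.77, a change of -0.30 with the normexp correction, and the other six that fell, Timp2, Col3a1, Mmp14, Col1a2, Spp1 and Mmp2, changed by -1.17 to -0.39 and were not called with slide as a block.

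**Figure D3:**
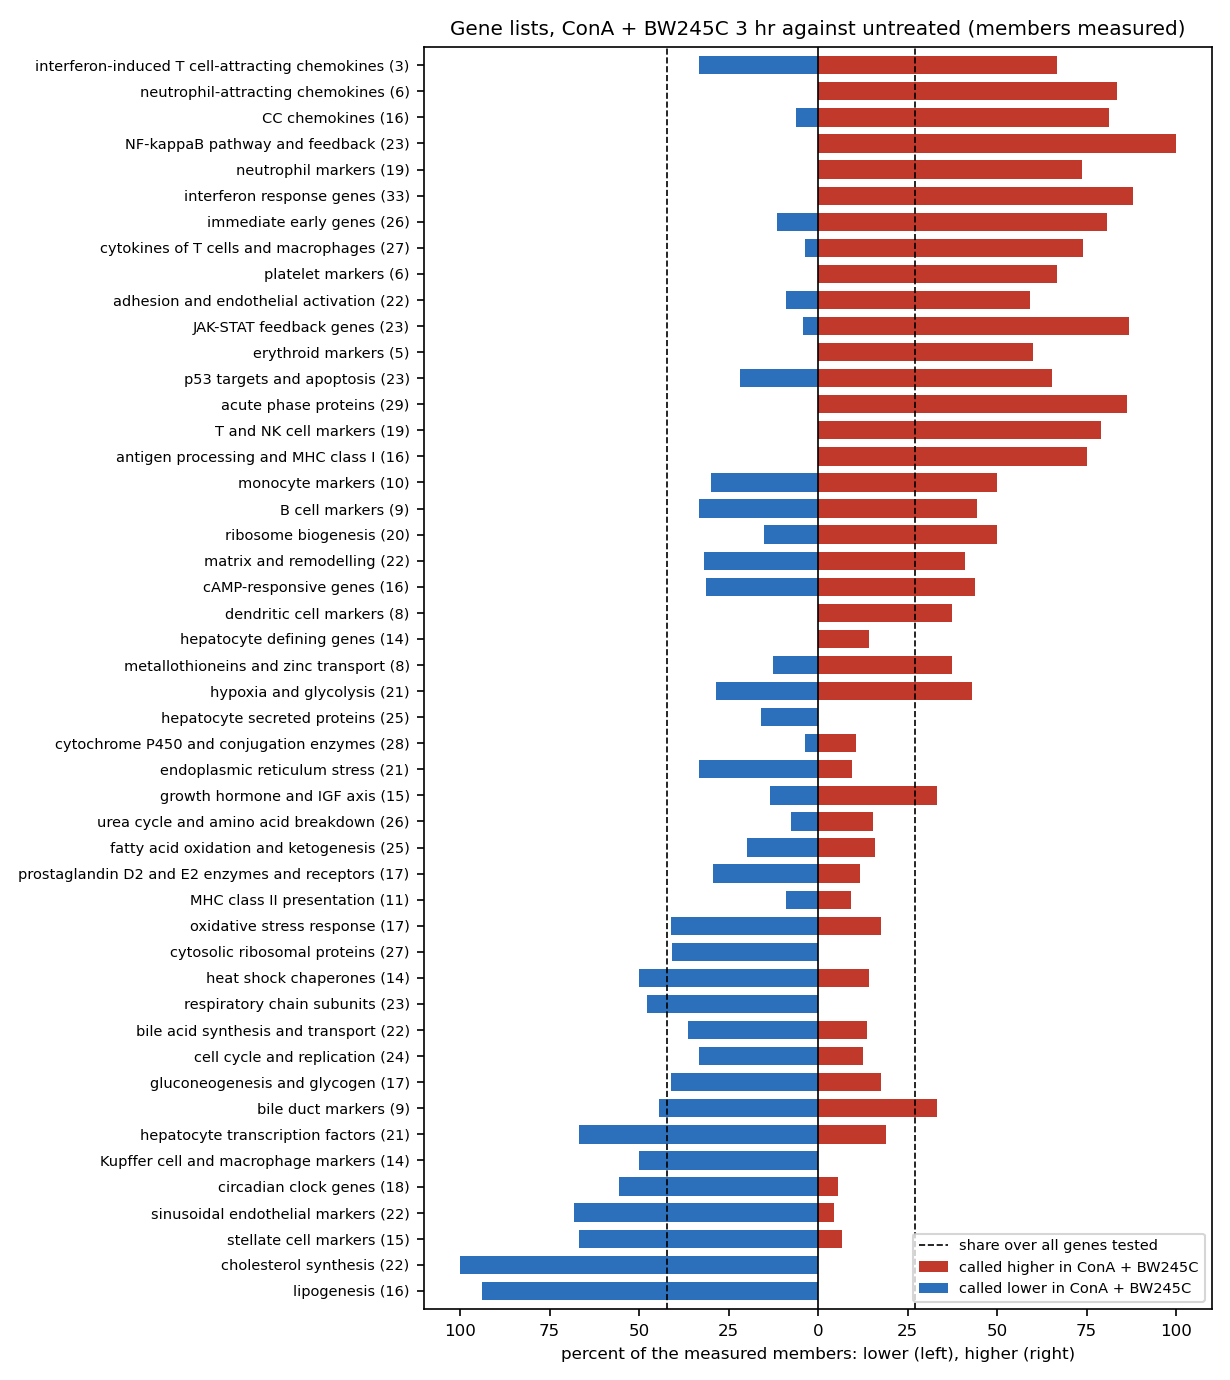
Percent of the measured members of each of 48 gene lists called higher (right, red) and lower (left, blue) in ConA + BW245C against untreated livers, ordered by median log2 change, with dashed lines at the shares over all genes tested (27% higher, 42.3% lower) and the number measured after each name. All 23 NF-kappaB genes are called higher and all 22 cholesterol synthesis genes lower.

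Markers of blood cells changed alongside the inflammatory genes. Of 19 neutrophil markers measured, 14 rose and 0 fell (12 higher and 0 lower with slide as a block), with a median log2 change of 2.67 (1.49 at the least changes). Their summed scaled signal lay between 48091 and 74743 in ConA + BW245C livers and between 13598 and 14645 in untreated livers. Lcn2, whose signals are given above, held a large part of the ConA + BW245C sum. Among the other members, Csf3r changed by 0.13 and Fpr1 by -0.57, the second without a call. S100a8, a subunit of the calprotectin of neutrophils, had 1431, 2767, 816, 2279 and 994 in ConA + BW245C livers and 16.4, 15, 15.3, 11.1 and 26.5 in untreated livers, a log2 change of 6.53 ± 0.36. Its partner S100a9 rose by 6.14. Hepatocytes and macrophages can make Lcn2 in inflammation, so that this marker also stands in the acute phase list.

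Of 19 T and natural killer cell markers, 15 rose and 0 fell, with a median of 0.88, and with slide as a block 9 rose, with a median of 0.61. The summed signal of these markers lay between 9591 and 13216 in ConA + BW245C livers and between 5027 and 8936 in untreated livers. Tbx21, the transcription factor of interferon-producing T cells, had 41.2, 42.3, 27, 39.8 and 31.3 in ConA + BW245C livers and 9.69, 7.78, 6.53, 5.94 and 6.26 in untreated livers, a log2 change of 2.33 ± 0.19, or 0.97 with the normexp correction. Gzmb, the cytotoxic granzyme B, rose by 2.13, and Lck, a kinase of the T cell receptor, by 1.51. The natural killer receptor genes Klrb1c and Klrd1 did not rise, with changes of -0.12 and -0.18, and Klrk1 and Ncr1 were not tested. Ppbp, Pf4, Gp9 and Treml1 were the 4 of 6 platelet markers that rose, Treml1 by 2.01 and Pf4 by 1.12 on the log2 scale and Gp9 at least 3.98-fold (0.665 on the log2 scale with the normexp correction). The haemoglobin gene Hbb-bt rose by 1.78 and Hba-a1 by 1.23, without a call when slide was a block (adjusted p = 0.135 and 0.169), and Slc4a1, the anion exchanger of red cells, rose by 2.31. In all 3 of 5 erythroid markers rose (1 higher and 0 lower with slide as a block), and their summed signal varied widely, between 6071 and 37674 in ConA + BW245C livers and between 5313 and 17057 in untreated livers. Replicate 5 had the lowest erythroid and platelet levels of the ConA + BW245C group. The part of blood cells in the increases described above was not tested.

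Other leukocyte lists were mixed, where 27% of all genes rose and 42.3% fell. Of 9 B cell markers 4 rose and 3 fell (2 higher and 0 lower with slide as a block), of 10 monocyte markers 5 rose and 3 fell (3 higher and 1 lower with slide as a block), and of 8 dendritic cell markers 3 rose and 0 fell (2 higher and 0 lower with slide as a block). Cr2, the complement receptor of B cells, rose by 1.94, Chil3, a chitinase-like protein of myeloid cells, by 2.92, and Batf3, a transcription factor of dendritic cells that activated T cells also express, by 2.42. Ccr2, the receptor of Ccl2 and Ccl7, fell, with 1.18, 5.43, 2.17, 3.23 and 2.6 in ConA + BW245C livers, 1 of them well above background, and 9.97, 8.82, 9.78, 7.43 and 6.94 in untreated livers, a change of -1.71 that was -0.29 with the normexp correction. Of 14 Kupffer cell and macrophage markers 7 fell and 0 rose, where 42.3% of all genes fell. Their median was -0.58, which was -0.11 with slide as a block, where 0 were called. Vsig4 changed by -0.90 (-0.43 with the block), C1qa by -0.79 (-0.45) and Slc40a1, the iron exporter, by -0.94 (-0.67), so that for Kupffer cell markers a change with group and a difference between slides cannot be told apart.

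Some endothelial and stellate cell markers fell by more. Of 22 sinusoidal endothelial markers, 15 fell and 1 rose, with a median log2 change of -0.67, where 42.3% of all genes fell. With slide as a block 6 fell, with a median of -0.44, where 2970 of all 15104 genes fell. Lyve1 and Flt1 changed by 0.045 and 0.085 without a call, Pecam1 by -0.016 and Cdh5 by -0.16. Sox18, a transcription factor of endothelial identity, had scaled signals of 3.08, 0.851, 1.32, 1.16 and 1.28 in ConA + BW245C livers, none of them well above background, and 75.3, 73.5, 75, 80 and 62.1 in untreated livers. The decrease was at least 15.6-fold, and the groups were far apart on every array. With the normexp correction Sox18 changed by -2.195 on the log2 scale, a smaller decrease than that bound. Gpr182, a scavenger receptor for chemokines on sinusoidal endothelium, had 232, 211, 168, 246 and 259 in ConA + BW245C livers and 1571, 1276, 1513, 1352 and 1552 in untreated livers, a log2 change of -2.71 ± 0.18. Rspo3 and Bmp2, endothelial signals to hepatocytes, fell by 1.45 and 1.07. Kdr, a receptor of vascular endothelial growth factor, was called higher by its brightest probe (0.67), while its other probe moved the opposite way and the mean of both gave -0.31, so that no direction can be given.

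Of 15 stellate cell markers 10 fell and 1 rose, with a median of -0.80, where 42.3% of all genes fell. With slide as a block 5 fell, with a median of -0.34. Pdgfrb, the platelet-derived growth factor receptor of stellate cells, had 15.7, 11.6, 22.6, 17.2 and 38.2 in ConA + BW245C livers and 113, 121, 123, 115 and 100.2 in untreated livers, a log2 change of -2.56 ± 0.21. Lrat, the enzyme that stores vitamin A, fell by 2.32, and the transcription factor genes Hand2 and Lhx2 by 2.22 and 1.87. Tagln, a smooth muscle cytoskeletal protein, rose by 1.07. Of 9 bile duct markers 3 rose and 4 fell (1 higher and 1 lower with slide as a block), near the 27% and 42.3% of all genes. Sox9 was among those that rose, with a log2 change of 1.86.

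**Figure D4:**
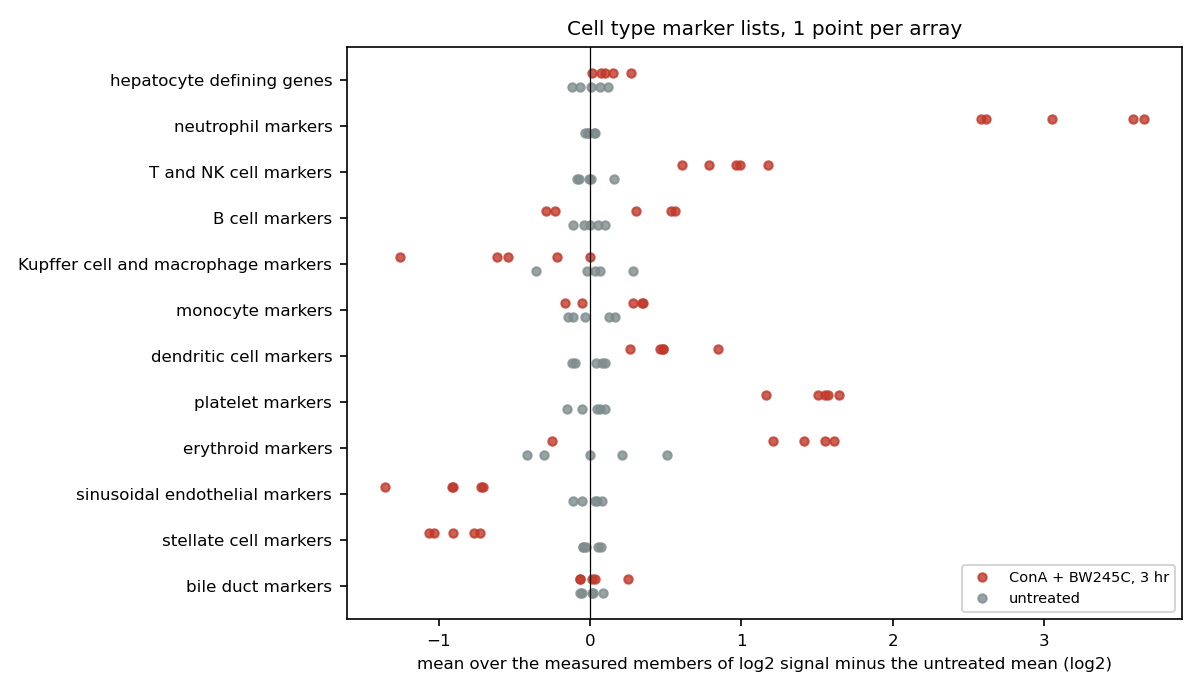
Mean over the measured members of each cell type marker list of the log2 signal minus the untreated mean (horizontal axis, log2), 1 point per array, ConA + BW245C livers in red above untreated livers in grey. Neutrophil markers stand between 2.58 and 3.66 in ConA + BW245C livers, sinusoidal endothelial markers between -1.36 and -0.71, and hepatocyte genes between 0.015 and 0.27.

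The decreases named by size were of genes of bile acid and glucose metabolism and of regulators of transcription and growth. Cyp7a1, the rate-limiting enzyme of bile acid synthesis, had scaled signals of 10.3, 8.07, 10.5, 25.7 and 82.1 in ConA + BW245C livers and 1231, 972, 814, 1344 and 1324 in untreated livers. The log2 change was -5.96 ± 0.71, a 62.3-fold decrease (limma adjusted p = 1.71e-07), with replicate 5 the high array of its group and a change of -6.51 without it. G6pc, the enzyme that releases glucose from hepatocytes, had 183, 130.1, 201, 120.4 and 1444 in ConA + BW245C livers and 8239, 15187, 12653, 17951 and 13354 in untreated livers. Replicate 5 was again far above the other ConA + BW245C arrays, and the log2 change was -5.75 ± 0.48 with it and -6.40 without it. G0s2, an inhibitor of adipose triglyceride lipase, had 12.4, 13.6, 13.2, 7.77 and 24.6 in ConA + BW245C livers and 799.9, 935, 961, 831 and 466 in untreated livers, a log2 change of -5.86 ± 0.28. Rnf43, which removes Wnt receptors from the cell surface, had 13.8, 14.7, 10.3, 16.3 and 25.7 in ConA + BW245C livers and 659, 598, 557, 568 and 695 in untreated livers, a log2 change of -5.31 ± 0.23. As for the increases, the genes named by size were chosen among those without overlap between the groups.

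Hhex, a transcription factor of liver and endothelial development, fell by 4.54, Ccnf, a cyclin of an E3 ligase, by 4.50, Cbx2, a Polycomb protein, by 4.19, Hic1, a transcriptional repressor, by 4.01 and Spata2l by 3.81 on the log2 scale. Each of these was also called lower with slide as a block. Chrna4, a nicotinic receptor subunit, had 30.6, 11.1, 5.39, 16 and 1.07 in ConA + BW245C livers and 41.9, 285, 232, 110.4 and 175 in untreated livers, a log2 change of -4.14 ± 0.86 that was not called with slide as a block (adjusted p = 0.155). Chst13, a chondroitin sulfotransferase, changed by -4.64 by its brightest probe, of which 2 ConA + BW245C arrays and all untreated arrays were well above background, while its other probe changed by 0.012, so that the decrease rests on 1 of the 2 probes.

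Metabolic lists differed in how far they fell. Of 22 genes of cholesterol synthesis and its control, 22 fell, 17 of them at least 2-fold, with a median log2 change of -1.52, and 15 fell with slide as a block. Mvd, which makes isopentenyl pyrophosphate, had 62.5, 70.1, 88.9, 46.7 and 29 in ConA + BW245C livers and 365, 776, 794, 603 and 607 in untreated livers, a log2 change of -3.45 ± 0.30. Lss, the lanosterol synthase, fell by 2.25. Of 16 lipogenic genes 15 fell and 0 rose, with a median of -1.74, and 8 fell with slide as a block. Gpam, which starts triglyceride synthesis, had 63, 40, 38.6, 23.4 and 26.5 in ConA + BW245C livers and 96.8, 399.6, 344, 249 and 190.2 in untreated livers, a log2 change of -2.67 ± 0.29, and the enzymes of fatty acid synthesis Acaca and Elovl6 fell by 1.70 and 1.94.

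Bile acid genes fell in 8 and rose in 3 of 22 cases, a smaller share than the 42.3% of all genes that fell. The block left 3 lower and 2 higher, and the median turned to 0.19 in place of -0.21. Nr0b2, the small heterodimer partner that represses Cyp7a1, had 17.9, 17.7, 17, 10.1 and 22.3 in ConA + BW245C livers and 192, 281, 252, 240.0 and 173 in untreated livers, a log2 change of -3.77 ± 0.28. Cyp8b1, the sterol 12-alpha-hydroxylase, fell by 2.42. Among 17 genes of gluconeogenesis and glycogen 7 fell, close to the 42.3% of all genes, and 3 rose (2 higher and 2 lower with slide as a block). In that list Ppp1r3c, a glycogen-targeting phosphatase subunit, was at -2.94 and Irs2, an insulin receptor substrate, at 1.33. Fatty acid oxidation and ketogenesis had 4 increases and 5 decreases among 25 (3 higher and 1 lower with slide as a block). Fgf21, a fasting hormone of the liver, was well above background on no ConA + BW245C array and fell at least 6.18-fold, with 0.976, 0.901, 1.36, 1.22 and 3.47 in ConA + BW245C livers and 21.4, 40.3, 32.6, 28.5 and 25.5 in untreated livers. With the normexp correction Fgf21 changed by -1.245 on the log2 scale, a smaller decrease than that bound. Angptl4, an inhibitor of lipoprotein lipase, rose by 1.86 and Pdk4, which keeps pyruvate from oxidation, by 1.30.

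The urea cycle and amino acid breakdown and the drug-metabolising enzymes showed few calls, 4 higher and 2 lower of 26 and 3 higher and 1 lower of 28, fewer of each list than the 69.3% of all genes called. Under the block 1 was higher and 1 lower in the first list, and 3 higher and 0 lower in the second. Nags, whose product activates the urea cycle, fell by 1.72, and Por, the electron donor of all microsomal cytochromes P450, rose by 1.17. Of 21 hepatocyte transcription factors 14 fell and 4 rose (4 higher and 6 lower with slide as a block). Nr2f2 and Nr2f1, orphan nuclear receptors, fell by 2.50 and 2.41, and Prox1 by 1.37. Cebpb, an activator of acute phase genes, rose by 1.66, and Hnf4a by 0.31, a call that was lost without replicate 5 of the ConA + BW245C group. Of the circadian clock genes 10 of 18 fell and 1 rose (1 higher and 4 lower with slide as a block), where 42.3% of all genes fell. Per2 was well above background on no ConA + BW245C array and at least 5.81-fold lower, a log2 change of -1.14 with the normexp correction. The sources used here do not give the hour at which untreated livers were collected, and its part in the clock genes was not tested.

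Among the genes of the growth hormone axis 5 rose and 2 fell of 15 (5 higher and 1 lower with slide as a block), where 27% of all genes rose and 42.3% fell. Socs2 and Cish, feedback inhibitors of the growth hormone receptor, rose by 3.73 and 3.71, and Irs1, the main insulin receptor substrate of many tissues, fell by 3.47. The metallothioneins Mt1 and Mt2, which bind zinc, rose by 2.00 and 2.85, and the zinc importer gene Slc39a14 by 2.40, 3 increases in a list of 8 with 1 decrease (4 higher and 1 lower with slide as a block). Genes of p53 and apoptosis rose in 15 and fell in 5 of 23 cases (14 higher and 4 lower with slide as a block). Fas, the death receptor, had 2402, 2624, 2414, 2510.4 and 1732 in ConA + BW245C livers and 602, 526, 463, 490.5 and 539.8 in untreated livers, a log2 change of 2.15 ± 0.13, and Gadd45b rose by 4.33 and Btg2 by 3.97. Bbc3, a trigger of mitochondrial cell death, fell by 2.81.

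Endoplasmic reticulum stress genes rose in 2 and fell in 7 of 21 cases, with Atf3, a stress-induced repressor, at 5.03 and Xbp1 at 1.19. Under the block 3 rose and 2 fell, and the median turned to 0.27 in place of -0.051. Heat shock chaperones rose in 2 and fell in 7 of 14 (2 higher and 3 lower with slide as a block), with Dnajb1 at -1.37. Oxidative stress genes rose in 3 and fell in 7 of 17, with Hmox1, haem oxygenase, at 3.41, and with slide as a block 5 rose and 2 fell, the median turning to 0.048 in place of -0.18. Of 21 genes of hypoxia and glycolysis 9 rose and 6 fell (7 higher and 2 lower with slide as a block). Pfkfb3, an activator of glycolysis, had 2739, 3140.3, 2789, 5470.4 and 1897 in ConA + BW245C livers and 127, 68.3, 83.4, 142 and 93.7 in untreated livers, a log2 change of 4.92 ± 0.26, and Hk2 rose by 3.05. Cell cycle genes rose in 3 and fell in 8 of 24 (2 higher and 3 lower with slide as a block), with Ccne1, the cyclin of entry into DNA synthesis, at 2.25. Genes of ribosome assembly rose in 10 and fell in 3 of 20 (7 higher and 1 lower with slide as a block), with Rrs1 at 2.20 and Nop58 at 2.21. Cytosolic ribosomal proteins and respiratory chain subunits each had 11 decreases and no increase, of 27 and 23 genes, close to or above the 42.3% of all genes, and none was called with slide as a block. In the endoplasmic reticulum stress, oxidative stress, hypoxia and cell cycle lists the share that fell was under that 42.3%. For these lists other than hypoxia, and for heat shock chaperones, the share that rose was also under the 27% of all genes.

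Whether the agonist altered these changes was asked by testing ConA + BW245C against ConA + vehicle livers directly, in the same fit. At 3 hr 1776 genes were higher (11.8%) and 2547 lower (16.9%) in ConA + BW245C livers, 28.6% in all, and 572 of these differences reached 2-fold. With the authors' series matrix values in place of the scaled signals 2871 were higher and 1754 lower with the median of all genes at 0.078 in place of -0.037. Small differences from vehicle therefore had no settled direction. With slide as a block 854 were higher and 916 lower, and on the 1 slide that held all 5 ConA + BW245C arrays with 2 ConA + vehicle arrays 164 and 166. The 2 comparisons against untreated livers share the untreated arrays, so their values are set side by side below and the direct test is given with its 95% interval.

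Several of the large increases did not pass the test against vehicle. Cxcl10 had 109170, 115990, 114530, 100990 and 97963 in ConA + vehicle livers, and its ConA + BW245C minus ConA + vehicle difference was -0.20 on the log2 scale, with an interval of -0.77 to 0.37. For Cxcl1 the difference was -0.018 (-0.51 to 0.48), for Ifng -0.32 (-0.83 to 0.19), for Tnf -0.49 (-1.26 to 0.28) and for Icam1 -0.43 (-0.87 to 0.0019). All 5 intervals span 0, and neither no difference nor a decrease of the size of their lower ends is separated by these arrays. Saa3 differed, with 81988, 99194, 61358, 57839 and 51841 in ConA + vehicle livers and a difference of -0.90 ± 0.21 (limma adjusted p = 0.0036), and Socs1 too, with -0.74 ± 0.22.

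Several lists held more genes lower than with vehicle than the 16.9% of all genes. These list counts are from the fit without slide as a block. With the block, 916 of all genes were lower in place of 2547. Interferon response genes were lower in 23 and higher in 1 of 33 cases, with median log2 changes against untreated of 2.12 in ConA + BW245C and 2.99 in ConA + vehicle livers. The class I presentation genes were lower in 14 of 16, the NF-kappaB genes in 16 of 23, the acute phase genes in 17 of 29, the immediate early genes in 15 of 26, the CC chemokines in 9 of 16 and the JAK-STAT genes in 12 of 23, and in all of these lists at most 1 gene was higher. Some stress lists were lower too. Hypoxia and glycolysis genes were lower in 11 and higher in 1 of 21 cases, and p53 and apoptosis genes in 11 and 3 of 23. Endoplasmic reticulum stress genes were lower in 9 of 21 and heat shock chaperones in 8 of 14, with 0 higher in either list. Oxidative stress genes were lower in 4 and higher in 2 of 17, cell cycle genes in 3 and 1 of 24, and respiratory chain subunits in 1 and 1 of 23. Genes of gluconeogenesis and glycogen were higher in 6 and lower in 2 of 17, and those of the urea cycle and amino acid breakdown in 4 and 1 of 26. Platelet markers were lower in 4 and higher in 1 of 6 (median difference -0.73) and erythroid markers lower in 4 of 5 (median -1.12), and the part of these blood cells in the lower lists was not tested. Neutrophil markers were lower in 1 and higher in 1 of 19 cases, and cholesterol synthesis genes in 5 and 0 of 22. The genes of the cyclic AMP list were lower in 7 and higher in 2 of 16, with a median difference of -0.34. Sinusoidal endothelial markers were higher in 2 and lower in 0 of 22, and Sox18 was at 0.921, 1.05, 0.964, 1.14 and 0.921 in ConA + vehicle livers, on no array well above background.

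The genes with the largest differences from vehicle fell into different patterns against untreated livers. Nos2, the inducible nitric oxide synthase, had 325, 310.2, 266, 282 and 139 in ConA + BW245C livers and 3618, 2386, 2281, 2291 and 2437 in ConA + vehicle livers, against 85.7, 72.5, 77.3, 80.9 and 91.5 in untreated livers. It rose by 1.64 ± 0.31 in ConA + BW245C and by 4.98 in ConA + vehicle livers, and the difference was -3.34 ± 0.31 (limma adjusted p = 2.62e-07). Gdf15, a stress hormone of the liver, had 152, 254, 282, 363 and 219 in ConA + BW245C livers, 3485, 928, 2297, 5622 and 5194 in ConA + vehicle livers and 95.6, 137, 133, 116 and 79.6 in untreated livers. Its change against untreated was 1.15 in ConA + BW245C livers, or -0.047 with slide as a block, and 4.74 in ConA + vehicle livers. Ptgs2, given above, had 61.3, 24.5, 24.5, 47.8 and 33.7 in ConA + vehicle livers, and the difference was -3.02 ± 0.52 (-1.14 with the normexp correction). In these 3 genes the ConA + BW245C arrays lay closer to the untreated arrays than the ConA + vehicle arrays did.

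In a second pattern the gene was below the untreated level with the agonist and not with vehicle. Ddit4, an inhibitor of the mTOR kinase that glucocorticoids and hypoxia induce, had 84.2, 172, 103, 755 and 128 in ConA + BW245C livers, 4506, 2926, 4218, 2842 and 2540.3 in ConA + vehicle livers and 1262, 2003, 2736, 2204 and 3769 in untreated livers. It fell by 3.72 ± 0.39 against untreated in ConA + BW245C livers, while the ConA + vehicle change of 0.56 was not called (adjusted p = 0.222), and the difference was -4.28 ± 0.39 (-4.17 with slide as a block, adjusted p = 1.09e-04). Replicate 4 was the high array of the ConA + BW245C group for Ddit4 and still lay below every array of the other groups. Dusp1, also induced by glucocorticoids, had 687, 339, 496, 620.4 and 765 in ConA + vehicle livers, and the difference was -3.10 ± 0.30.

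In a further pattern the gene was below the untreated level in both ConA groups and less so with the agonist. G6pc had 31, 30.1, 51.9, 34.2 and 52.7 in ConA + vehicle livers, and its difference of 2.64 ± 0.48 was 2.00 without replicate 5 of the ConA + BW245C group. Slc25a34, a mitochondrial carrier, had 73.8, 41.2, 57.1, 30.2 and 69.6 in ConA + BW245C livers, 3.65, 11.4, 11.9, 12.2 and 13 in ConA + vehicle livers and 162, 96.2, 111, 79 and 88.7 in untreated livers, a difference of 2.44 ± 0.31 (1.13 with the normexp correction). Its change against untreated of -1.01 was not called with slide as a block (adjusted p = 0.166). Spsb4, a substrate receptor of an E3 ligase, had a difference of 1.79 ± 0.32 (0.88 with that correction) and lay 1.31 below untreated on the log2 scale. Adamts15, a matrix protease that was below background on all ConA + vehicle arrays, was at least 1.96-fold higher with BW245C (0.23 on the log2 scale with that correction). Its change against untreated was -1.07, which was 0.073 with slide as a block. Pdk4 and S100g were instead above the untreated level with the agonist. Pdk4 had 923, 1225, 1467, 1184 and 1176 in ConA + BW245C livers, 468, 346, 243, 295 and 115 in ConA + vehicle livers and 323, 706, 624, 352 and 505 in untreated livers, a difference between the ConA groups of 2.15 ± 0.31. S100g, an intracellular calcium-binding protein, had 26.7, 24, 18.5, 31.1 and 26.5 in ConA + BW245C livers, 3.33, 3.78, 6.95, 1.87 and 9.56 in ConA + vehicle livers and 6.49, 9.49, 13, 9.11 and 6.34 in untreated livers, a difference of 2.52 ± 0.42 (0.68 with the normexp correction), and its change of 1.54 against untreated was not called with slide as a block (adjusted p = 0.0967). The ConA + BW245C arrays lay above all others for both genes. Ankrd1, a muscle ankyrin repeat protein, had 1.98, 0.901, 1.39, 2.58 and 1.17 in ConA + BW245C livers, none of them well above background, 17.8, 11.6, 11.7, 35.5 and 32.2 in ConA + vehicle livers and 5.51, 2.93, 4.22, 4.61 and 4.88 in untreated livers. It was at least 4.14-fold lower with BW245C than with vehicle on the scaled signals (limma adjusted p = 2.51e-06), a difference of -0.96 with the normexp correction. Against untreated livers no least fold can be given. The lowest signals well above background on the ConA + BW245C arrays, 3.98 to 6.06, reached the untreated level. With the normexp correction that change was -0.10. Il4, the cytokine described above, had 36.1, 35.1, 36.4, 40.7 and 50.4 in ConA + vehicle livers and a difference of 1.10 ± 0.15 (limma adjusted p = 2.74e-05).

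**Figure D5:**
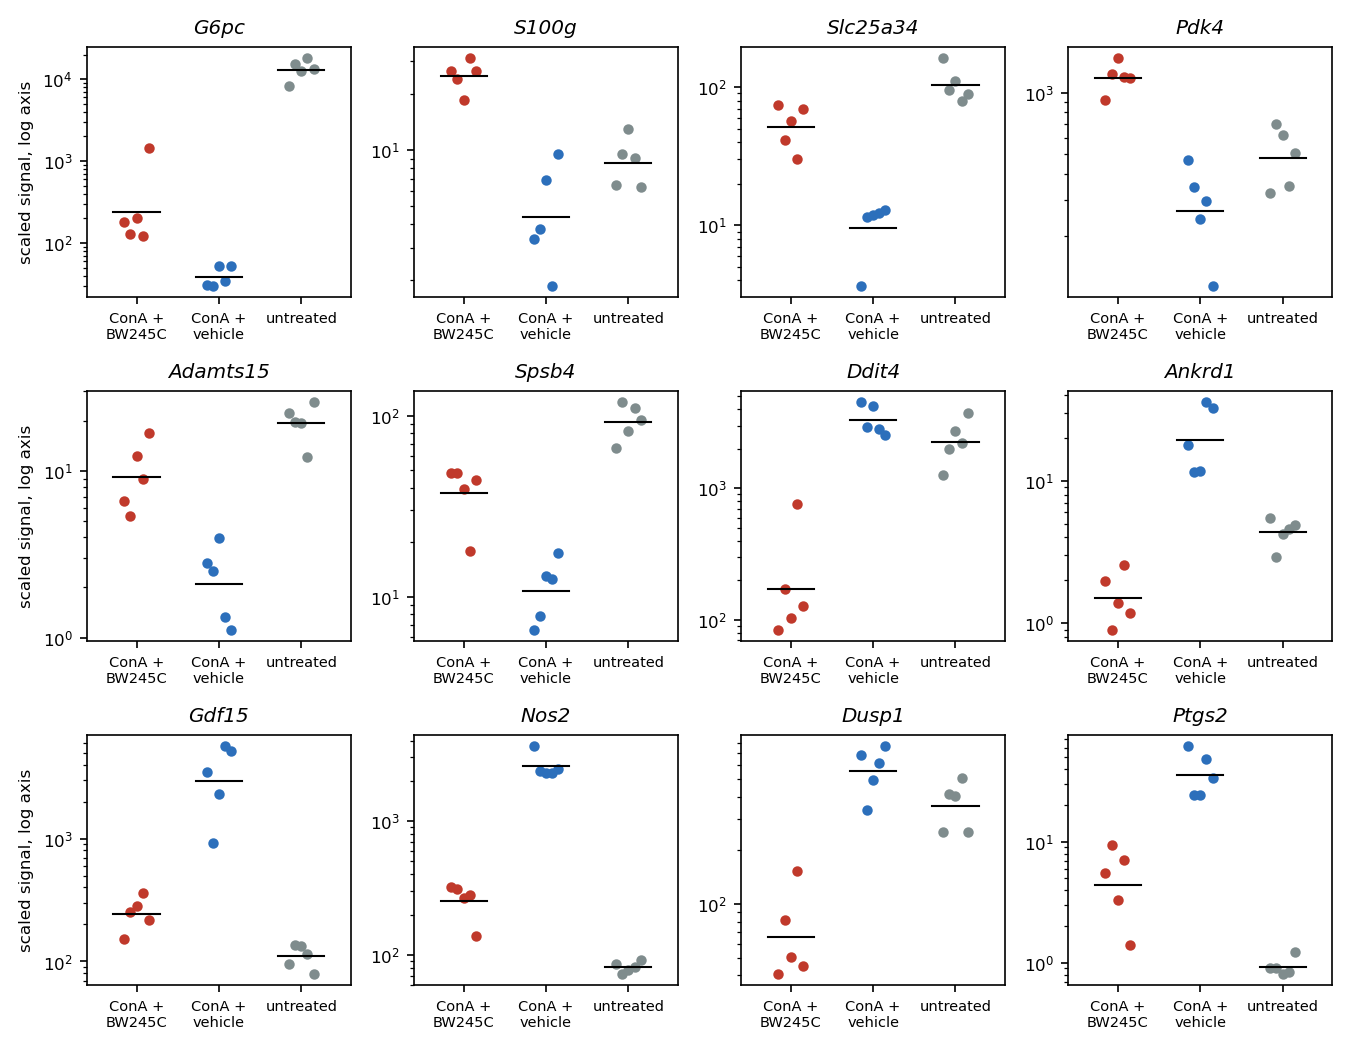
Scaled signal (vertical log axis) in ConA + BW245C (red), ConA + vehicle (blue) and untreated (grey) livers of the 12 genes with the largest differences between the ConA groups among those called in both comparisons, 1 point per array, with a black bar at the geometric mean. The genes were chosen among those whose ConA groups do not overlap, so that separation follows from the choice. For Ddit4 and Dusp1 the ConA + BW245C arrays lie below the untreated ones.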

How the data were processed

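Gene expression was measured in mouse liver on 1-colour Agilent arrays, 1 Cy3-labelled total RNA sample per array. Per the file headers the authors deposited Agilent Feature Extraction 10.7.3.1 output, with background-subtracted intensity per spot (the submitters' processing notes name version 9.1). They also deposited a series matrix of scaled intensities, with its scaling unstated, and its log2 was taken where it was used. Per the labels each array is a separate mouse, and the groups were taken from the sample titles.

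Flagged spots were left out and log2 of the processed intensity was set relative to each array's 75th percentile, with spots of a probe averaged. Probes were named through their accession in a RefSeq table (26582 of 55681 probes matched), kept when 5 or more of the 25 arrays had them well above background, and the brightest probe stood for a gene. limma 3.58.1 in R 4.3.3 fitted 1 mean per group over all 25 arrays, with Benjamini-Hochberg adjustment over 15104 genes and calls at 0.05. The number of arrays, 5 per group, limits the precision. The method was tested on simulated data.

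Genes were named by a rule: the 12 largest increases and decreases without overlap between groups, up to 4 members of each gene list with the smallest p and those moving against their list, the 6 largest differences from vehicle in each direction, and the genes of prostaglandin D2 and of 5 cytokines. The differences from vehicle were taken among genes called in both comparisons and without overlap of the ConA groups. The members and lists were chosen with earlier results of these data known. Some genes chosen by the rule are not reported here. Alternatives were other background corrections, normalizations, filters and probe summaries, a fixed or random slide block, a replicate number block, only the groups compared, an intensity trend, array weights, stricter thresholds and leaving out each array. Replicate numbers did not pair the mice: same-numbered ConA + BW245C and untreated arrays correlated at -0.186 to -0.0241 in their deviations from the group means.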

Additional observations from a re-analysis of the deposited data

Results flagged for a closer look

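An array was set apart when its gap to the nearest of the 5 of its group was over 0.71 of the group's whole range, on the log2 scale (Dixon's 95% critical value). Chance flags about 1 in 20 groups, and 30 of 370 groups tested were flagged (8.11%). Replicate 5 of the ConA + BW245C group was the lowest array in 13 of these and the highest in 2, and the low values were mostly of inflammatory and blood cell genes. In that array the lowest values were Cxcl9 at 20643, with the others between 37757 and 41606 (gap 0.861), Fas at 1732, with the others between 2402 and 2624 (gap 0.788), Hba-a1 at 3988, with the others between 15598 and 23946 (gap 0.761) and Hbb-bt at 1831, with the others between 9062 and 13272 (gap 0.807). Also lowest in replicate 5 were Hcar2 at 415, with the others between 666 and 714 (gap 0.871), Nos2 at 139, with the others between 266 and 325 (gap 0.764), Psmb10 at 6584, with the others between 9036 and 10246 (gap 0.716) and Ripk2 at 235, with the others between 467 and 537 (gap 0.832). The last of these low values were Saa3 at 19975, with the others between 41245 and 45988 (gap 0.869), Steap4 at 6031, with the others between 8187 and 9160.2 (gap 0.731) and Treml1 at 13.5, with the others between 22.6 and 25.6 (gap 0.805). It was the highest array for G6pc at 1444, with the others between 120.4 and 201 (gap 0.794) and Spata2l at 86.8, with the others between 18.6 and 20.4 (gap 0.941). On the mean log2 scale of the marker lists it was the lowest for platelet markers (1.16, others 1.51 to 1.65, gap 0.712) and erythroid markers (-0.25, others 1.21 to 1.61, gap 0.785). Without replicate 5, 4046 genes rose and 6273 fell against untreated, and 1301 were higher and 2136 lower than with vehicle. The spots above background and scaling of that array lay within the range of the others, and its part in these differences was not tested.

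Other ConA + BW245C arrays that stood apart were Bmp2 in replicate 2 at 360.2, above the others at 168 to 198 (gap 0.783), Nr4a2 in replicate 3 at 20.1, below the others at 30.2 to 31.9 (gap 0.883) and Ptges in replicate 4 at 3505, below the others at 3859.5 to 4002 (gap 0.727). Further ones were Slc39a14 in replicate 4 at 7254, above the others at 4352 to 4586 (gap 0.897), Spsb4 in replicate 4 at 17.9, below the others at 39.6 to 48.3 (gap 0.8) and Thbs1 in replicate 4 at 554, above the others at 323 to 373 (gap 0.732). Of the ConA + vehicle arrays these were Nos2 in replicate 1 at 3618, above the others at 2281 to 2437 (gap 0.857) and Slc25a34 in replicate 1 at 3.65, below the others at 11.4 to 13 (gap 0.898). Among the untreated arrays they were Ccl11 in replicate 5 at 1.06, above the others at 0.757 to 0.830 (gap 0.726), Ccne1 in replicate 1 at 30.2, above the others at 19.6 to 21.7 (gap 0.757), Elovl6 in replicate 1 at 4384, below the others at 9879 to 13739 (gap 0.711) and G0s2 in replicate 5 at 466, below the others at 799.9 to 961 (gap 0.746). The remaining untreated ones were Hcar2 in replicate 5 at 2.19, below the others at 4.73 to 6.22 (gap 0.738), Ptgs2 in replicate 5 at 1.24, above the others at 0.815 to 0.911 (gap 0.734) and Thbs1 in replicate 3 at 28.4, above the others at 14.8 to 16.6 (gap 0.821). For Ccl11 and Ptgs2 these untreated signals were below background.

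Probes that no RefSeq accession named were left out of the comparison. Of 13877 such probes above background, 9619 passed the test against untreated livers, 69.3% of them, the same share as among the named genes. The directions differed: 6848 were higher and 2771 lower in ConA + BW245C livers, while 38.9% of the calls among named genes were higher. Over all kept probes, named or not, the median log2 change was -0.0057, so the small general decrease did not extend to all kept probes. Among named genes it depended on the filter, with a median of 0.017 when dim probes were not filtered out.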

How the results depend on the processing

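Against untreated livers (4075 higher, 6393 lower), slide as a block gave 2209 and 2970, a 2-fold minimum 1737 and 1793, and all kept probes, named or not (chosen after seeing the data), 11762 and 11110. Leaving out 1 array gave 3893 to 4046 and 6008 to 6273. Under the other alternatives both counts stayed within 1.5 times. Against ConA + vehicle (1776 higher, 2547 lower) the counts moved more: 854 and 916 with the slide block, 1041 and 1609 with slide as a random block, 164 and 166 on the shared slide, 751 and 1439 with only these groups fitted, 691 and 1434 at 0.01, 243 and 329 past 2-fold, and 4499 and 4271 over all kept probes. The series matrix gave 2871 and 1754, 62.1% of calls higher in place of 41.1%, and its scale and centring are unstated. Leaving out 1 array gave 1178 to 2266 higher and 1926 to 3146 lower, the first of these at 1178 without replicate 1 of the ConA + vehicle group. The numbers did not pair the mice, and a block on replicate number gave 4022 and 6386 against untreated and 1665 and 2441 against vehicle, and no sample correlated best with its own number. Directions turned for Adamts15 (0.073) and Gdf15 (-0.047) with the slide block, for Ptges (0.56) and Kdr (-0.31) with probes averaged, and for Chst13 (0.012) with only probes found on all 25 arrays, where its other probe stood in. The causes of the other shifts were not tested. Of the genes named, 11 lost the call when some single array was left out: C1qa, Icam2 and Vsig4 without replicate 3 and Hnf4a without replicate 5 of the ConA + BW245C group, Per1 without any 1 of 3 arrays, Dusp4, Mmp2 and Pim2 without any 1 of 4, F9 of 5, Sik1 of 6 and Vwf of 7. Genes near background are limited by signal: under the normexp correction Cbx2 changed by -1.71 and Hic1 by -2.50, in place of -4.19 and -4.01.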
